A study of Caenorhabditis elegans with 18 samples.

Results

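Whole early adult Caenorhabditis elegans carrying nhr-178(gk1005) were compared with wild type animals of the N2 strain (WT), both raised on the solvent DMSO. The comparison takes the 3 nhr-178 libraries and the 3 WT libraries grown on DMSO, chosen by genotype and treatment label, which are 6 of the 18 libraries of the study. The study measured RNA of whole animals of 3 genotypes, WT, nhr-45(tm1307) and nhr-178(gk1005), each on DMSO or on 0.3 µM antimycin A, an inhibitor of complex III of the mitochondrial electron transport chain. All animals were hatched into an L1 arrest of 18 h, grown from L1 to early adulthood on plates seeded with Escherichia coli HT115, and collected in pools of at least 1000. The series text calls the replicates biological triplicates. Each genotype is 1 strain, and whether the mutant was outcrossed is not given in the sources used here. An effect of the nhr-178 allele and one of any other sequence difference between the strains therefore cannot be told apart.

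nhr-178 encodes a nuclear hormone receptor, a family of ligand-regulated transcription factors that has expanded greatly in this nematode. Many of these receptors act in the intestine, the main metabolic organ of the worm. Strains kept apart can differ at loci unrelated to the gene of interest, and such a difference can touch a single gene or a stretch of neighbours. Genes of a family that sit far apart share no stretch. Their position does not separate the nhr-178 allele from other sequence differences between the strains. The results are ordered in that way, first single genes and stretches, then families.

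Total counts were 7728435 to 9488037 in the 3 WT libraries and 4600320 to 6571997 in the 3 nhr-178 libraries, so the mutant libraries were shallower without overlap. The part of depth in the results below was not tested, beyond the settings given in the closing section. Levels are CPM, counts relative to library size after TMM scaling, and they are compared within a gene only. Of 23368 genes in the table, 10981 passed a low count filter and were tested with edgeR's quasi-likelihood test, with a Benjamini-Hochberg adjusted p below 0.05 as the threshold for a call. The 3 nhr-45 libraries on antimycin stood apart from the other 15 on the first principal component, and they enter the low count filter and the estimate of spread. Of the 10981 tested genes, 9491 pass the same filter on the 6 compared libraries alone, and 204 had at most 3 counts in each of the 2 groups. Without the nhr-45 libraries on antimycin, 114 genes were called in place of 126. Defining markers of the main tissues were counted. ges-1 of the intestine had mean levels of 11.3 and 9.67 CPM in WT and nhr-178. rab-3 of neurons had 14.7 and 19.3 CPM, rme-2 of oocytes 208 and 224 CPM, and myo-3 of muscle 6.08 and 7.57 CPM. dpy-7 of the hypodermis had only 5 and 3 counts. Among these markers unc-119 of neurons, unc-54 of muscle and col-19 of the hypodermis were called lower and are described below. The sperm phosphatase genes gsp-3 and gsp-4 had 3 and 2 counts over the 3 WT libraries and 0 counts in nhr-178.

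nhr-178 itself (V:1603906-1607953) was barely counted, with 2, 2 and 2 counts in the WT libraries and 0, 0 and 2 counts in the nhr-178 libraries. On antimycin it had 15 counts over the WT libraries and 22 over the nhr-178 libraries. It did not pass the filter and was not tested, and at this depth its counts do not check the genotype labels. The tested genes on either side, F16B4.4 and nhr-177, gave log2 fold changes of -0.59 (adjusted p = 0.079, SE 0.16) and 0.86 (adjusted p = 0.8, SE 0.78). The receptor gene mutated in the other strain, nhr-45, had 4.51, 6.42 and 6.71 CPM in WT and 6.51, 6.37 and 8.15 CPM in nhr-178, a log2 fold change of 0.25 (adjusted p = 0.85, SE 0.28), with overlapping groups.

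On DMSO, 126 of the 10981 tested genes (1.15%) were called. Lower genes were the majority, with 107 lower (0.974%) and 19 higher (0.173%) in nhr-178. At least 2-fold differences were seen for 57 of the lower and 13 of the higher genes. The median over all tested genes was 0.003 on the log2 scale. At an unadjusted p below 0.05 there were 1114 genes. The 3 libraries on each side are separate samples by the labels, and with no culture or plate named, the p-values speak of the spread among these libraries, part of which may be technical. In whole animals, fewer cells of a type and less RNA per cell cannot be told apart.

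The 6 libraries of the same strains on antimycin share none with the DMSO comparison and give it a repeat. There 399 genes were called (3.63%), 276 lower and 123 higher. Of the 126 genes called on DMSO, 79 were called in the same direction on antimycin, 69 lower and 10 higher, which is 62.7% of the DMSO list and 19.8% of the antimycin list. Another 46 were called on DMSO only, and 1, F46C5.1, was called in opposite directions. Signs, called or not, matched for 116 of the 126. When each of the 6 DMSO libraries was left out in turn, 46 of the 126 genes stayed called every time, 39 lower and 7 higher, and 39 of these 46 were among those called the same way on antimycin.

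**Figure D1:**
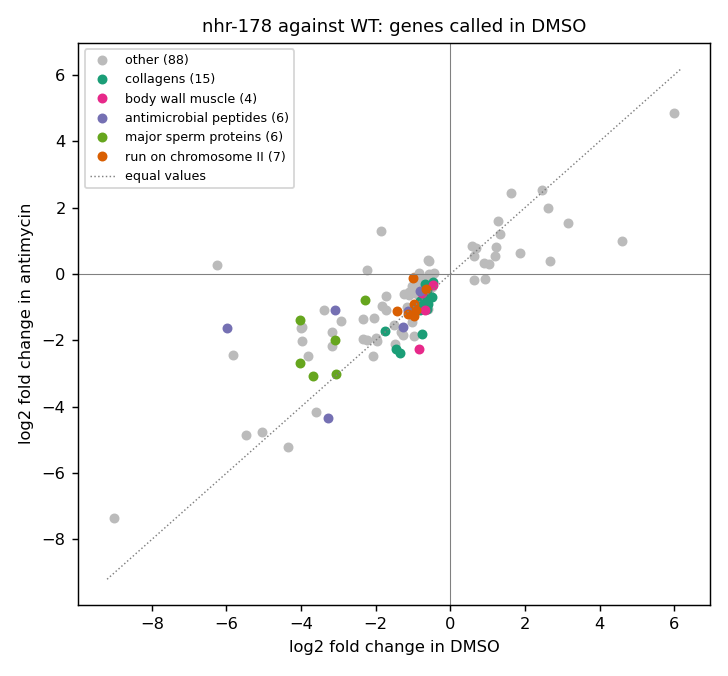
Each point is 1 of the 126 genes called on DMSO, with the log2 fold change of nhr-178 against WT on DMSO (x axis) and on antimycin (y axis), coloured by group with the number of genes in brackets. Most points lie in the lower left part, where a gene was lower in nhr-178 in both treatments, and F46C5.1 lies above the horizontal axis at -1.85 on DMSO and 1.28 on antimycin.

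The lowest adjusted p belonged to a single gene. unc-119 (III), which encodes a lipid-binding chaperone needed for nervous system development and movement, had 261, 275 and 275 CPM in WT and 9.55, 12.7 and 17 CPM in nhr-178. Every nhr-178 library lay far below every WT library. The log2 fold change was -4.35 (adjusted p = 1.3e-16, SE 0.17). On antimycin the levels were 314, 327 and 354 CPM in WT and 10.1, 8.71 and 8.15 CPM in nhr-178, a log2 fold change of -5.21 (adjusted p = 3.7e-18, SE 0.17). The tested genes on either side were near 0, com-1 at 0.02 and M142.5 at 0.14 on the log2 scale, neither called. The nhr-45 strain on DMSO, set against the same WT libraries, gave -0.25 (adjusted p = 0.55). unc-119 also stands on a list of 17 tested neuronal genes, of which 2 were called lower, unc-119 and unc-104, and 15 were not called. The called share was 11.8%, beside 1.15% of all tested genes. The summed level of that list was 1048 to 1063 CPM in WT and 723 to 745 CPM in nhr-178. Without those 2 genes, the sums were 761 to 788 CPM and 709 to 722 CPM, and the median of the remaining 15 log2 fold changes was 0.03.

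F56A4.3 (V) had 12.1, 9.43 and 8.98 CPM in WT, 257 counts in all, and 0 counts in all 3 nhr-178 libraries. Against the floor of 3 counts over a group it was at least 58.4-fold lower (adjusted p = 1.2e-08). On antimycin it had 168 counts over WT and 1 count over nhr-178, which is 0.00447 of the WT level with a 95% exact counting interval of 0.000113 to 0.0253 (adjusted p = 4.1e-09). All intervals and floors of this kind cover counting error only. It was not called in nhr-45 (log2 -0.43, adjusted p = 0.65). F56A4.3 lies within 1 Mb of nhr-178, on the same chromosome.

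Of 134 tested genes within 1 Mb of nhr-178, 4 were called, all lower: F56A4.3, F59A7.2, cnc-4 and sti-1. That is 2.99%, beside 1.15% of all tested genes and 1.74% of those on chromosome V. Whether these shares differ was not tested. Within 0.25 Mb 1 of 42 was called, and within 2 Mb 8 of 238. The median log2 fold change of the 134 was -0.08. F59A7.2 had 5.81, 4.45 and 4.0 CPM in WT and 1.74, 0.909 and 0.499 CPM in nhr-178, a log2 fold change of -2.22 (adjusted p = 0.018, SE 0.49), and on antimycin -2.0 (adjusted p = 0.01, SE 0.46). sti-1, which encodes a co-chaperone of Hsp90, had 20.4, 18.9 and 22.4 CPM in WT and 11.5, 9.85 and 12 CPM in nhr-178, a log2 fold change of -0.89 (adjusted p = 0.037, SE 0.22). Neither pair of groups overlapped. sti-1 was also called in nhr-45 at -0.98 (adjusted p = 0.013, SE 0.22) against the shared WT libraries. F59A7.2 lost its call without WT replicate 1, without nhr-178 replicate 2 or without nhr-178 replicate 3 (adjusted p up to 0.12), and sti-1 and cnc-4 lost theirs in each of the 6 leave-outs (up to 0.20 for each).

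Among single genes that were higher, msh-6 on chromosome I, which encodes a DNA mismatch repair protein, had 11.2, 8.91 and 10.2 CPM in WT and 57.1, 73.8 and 56 CPM in nhr-178. Every nhr-178 library lay above every WT library. Its log2 fold change was 2.63 (adjusted p = 2.2e-09, SE 0.21) and on antimycin 2.0 (adjusted p = 2.5e-07, SE 0.21). C08B6.11 had 1.19, 3.54 and 2.16 CPM in WT and 16.9, 9.85 and 11.14 CPM in nhr-178, a log2 fold change of 2.45 (adjusted p = 0.00033, SE 0.38) and on antimycin 2.53 (adjusted p = 0.00013, SE 0.39). It overlaps the counted gene C08B6.3, and reads of the 2 cannot be told apart where the strand was not used. Y43C5B.3, which overlaps R11A8.1 and Y43C5B.2, had 1 count over WT and 65 over nhr-178, a ratio of 95.5 with a 95% exact counting interval of 16.6 to 3831. On antimycin it had 2 counts over WT and 84 over nhr-178, a ratio of 31.6 (8.47 to 265). These 3 genes stayed called in every leave-out, and none was called in nhr-45.

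**Figure D2:**
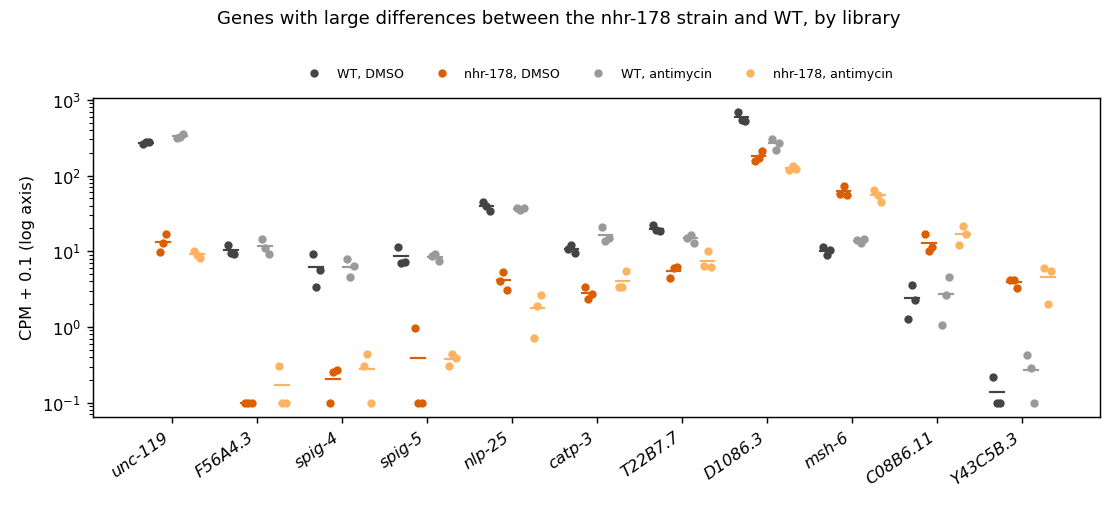
CPM plus 0.1 on a log axis for 11 genes, with 1 point per library and a bar at the mean of the 3 libraries of a group, for WT and nhr-178 on DMSO and on antimycin. The nhr-178 libraries of unc-119 lie below the WT libraries in both treatments, and those of msh-6 and Y43C5B.3 above; points at 0.1 are libraries with 0 counts.

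Of 30 lower calls with a log2 fold change of -2 or below, 26 had a mean under 5 CPM over the 6 libraries. One of these, C30G12.2 on chromosome II, chosen after its values were seen, had 5.22, 4.19 and 4.98 CPM in WT and 0, 0.455 and 0.333 CPM in nhr-178 (adjusted p = 0.00012), was called on antimycin (-2.03, adjusted p = 0.028) and held in every leave-out. Lower single genes that averaged 5 CPM or more included D1086.3, catp-3 (a sodium-potassium ATPase-like pump gene), T22B7.7, R09E10.13, H32K16.2 and F55G11.4. D1086.3 had 686, 547 and 527 CPM in WT and 155, 172 and 209 CPM in nhr-178, a log2 fold change of -1.71 (adjusted p = 7.0e-06, SE 0.21). catp-3 had 10.56, 12 and 9.41 CPM in WT and 3.26, 2.27 and 2.66 CPM in nhr-178, a log2 fold change of -1.98 (adjusted p = 0.0031, SE 0.37) and of -2.01 on antimycin. T22B7.7 gave -1.84 on DMSO and -0.98 on antimycin. None of these 3 was called in nhr-45. The remaining 3 were lower in both mutants. R09E10.13 gave -2.08 in nhr-178 and -2.28 in nhr-45, H32K16.2 gave -1.99 and -1.51, and F55G11.4 gave -1.72 and -2.26. Both comparisons use the same WT libraries.

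Neighbouring genes called the same way within 50 kb of the next formed 8 runs with 22 of the 126 called genes, and 18 of the 22 were called the same way on antimycin. The longest run lies on chromosome II from 6970745 to 7072415, 101.671 kb, on the WBcel235 annotation, and holds 7 called genes, all lower. They are art-1 (an enoyl-CoA reductase homologue), sod-1 (cytosolic copper/zinc superoxide dismutase), C15F1.1, unc-104 (the kinesin that carries synaptic vesicle precursors), cin-4 (a topoisomerase II relative), cth-2 (cystathionine gamma-lyase) and kars-1 (lysyl-tRNA synthetase). Their products differ in function. sod-1 had 2607, 2234 and 2516 CPM in WT and 1064, 1150.2 and 1125 CPM in nhr-178, with no overlap, and a log2 fold change of -1.14 (adjusted p = 3.3e-08, SE 0.10). art-1 had 491, 440.3 and 427 CPM in WT and 209, 255 and 227 CPM in nhr-178, a log2 fold change of -0.97 (adjusted p = 1.6e-05, SE 0.12). cth-2, which overlaps the counted gene ZK1127.3, had 569, 512 and 539 CPM in WT and 312, 270.4 and 267 CPM in nhr-178, a log2 fold change of -0.93 (adjusted p = 2.8e-05, SE 0.12). unc-104, C15F1.1, cin-4 and kars-1 gave -1.42, -0.97, -1.0 and -0.65, with adjusted p of 0.014, 0.037, 0.035 and 0.0054.

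Most uncalled genes between them also had negative values. Of the 20 tested genes in this span, 18 had a negative log2 fold change on DMSO, with a median of -0.66, and 16 on antimycin, with a median of -0.68. The 20 include the 7 called genes whose lower calls set the span. The DMSO count and median were therefore partly fixed by how the span was chosen. Most values just past both ends were negative too, though no gene of the flanks given here was called on DMSO. The flanks are of unequal size and follow no stated rule, so their medians depend on where they were cut. The 6 tested genes just to the left had a median of -0.40, with 5 negative, and the 3 just to the right -0.49, with 3 negative. On antimycin these medians were -0.28 and -0.33, and kat-1, a gene of the right flank, was called there at -1.14 (-0.52 on DMSO, adjusted p = 0.25). The 20 tested genes to the left had a median of -0.05 and the 20 to the right -0.08. On antimycin 6 of the 7 called genes were called again, and cin-4 was not (-0.13, adjusted p = 0.86). In nhr-45 on DMSO none of the 7 was called by edgeR, and the median of the span was 0.13. Over windows of 25 consecutive tested genes, the window from flcn-1 to kars-1 had the lowest median of the genome, -0.58, against -0.20 and 0.14 for the central 95% of 10822 windows, and the same window was at -0.59 on antimycin, ninth lowest there. With 15 genes per window another stretch of chromosome II, at 5721767-5811749, was lowest at -1.003, and this run came next at -0.83. art-1, sod-1 and cth-2 stayed called in all 6 leave-outs, and 3 of the 7 genes were called without nhr-178 replicate 1 and 4 without nhr-178 replicate 2.

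**Figure D3:**
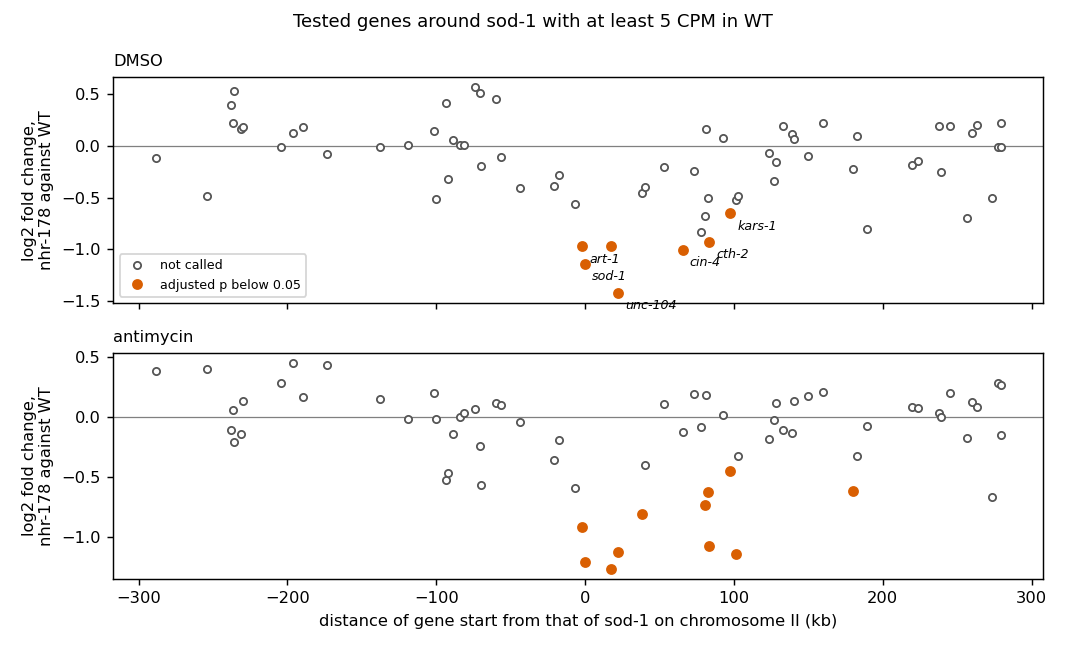
Log2 fold change of nhr-178 against WT for tested genes with at least 5 CPM in WT, by distance of the gene start from that of sod-1 on chromosome II, on DMSO (top) and antimycin (bottom); filled points had an adjusted p below 0.05. The called points lie from just left of sod-1 to about 100 kb to its right on DMSO.

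A second run of 3 lies on chromosome V from 14306468 to 14312795, with spig-4, spig-5 and F14D7.8. spig-4 had 154 counts over WT and 2 over nhr-178, or 0.0191 of the WT level with a 95% exact counting interval of 0.00229 to 0.0701. spig-5 had 214 counts over WT and 4 over nhr-178, and F14D7.8 had 74 and 3. On antimycin spig-4 and spig-5 were called again, with 92 against 4 and 128 against 6 counts. F14D7.8 was not, at 43 against 19 counts (adjusted p = 0.24). spig-4 and spig-5 stayed called in every leave-out, and F14D7.8 lost its call without WT replicate 2, nhr-178 replicate 1 or nhr-178 replicate 3 (adjusted p up to 0.10). In nhr-45 the 3 gave -0.37, -0.35 and -0.28, none called. The remaining 6 runs were pairs: C17C3.1 and C17C3.15, which overlap each other, msp-55 and msp-57, elo-2 and epic-1, F45D3.3 and F45D3.4, nlp-25 and grsp-1, and, higher, nspc-17 and nspc-19. F45D3.3 had 258, 272 and 241 CPM in WT and 108, 103.82 and 111 CPM in nhr-178, a log2 fold change of -1.26 (adjusted p = 7.7e-07, SE 0.14). F45D3.4 gave -1.32. Both were lower in nhr-45 as well, at -0.98 and -1.30.

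By chromosome, 34 of 1957 tested genes were called on V (1.74%), which carries nhr-178, and 27 of 1838 on IV (1.47%). The calls were 21 of 1857 on II, 18 of 1587 on X, 16 of 1847 on III (0.866%) and 10 of 1880 on I (0.532%). The shares on II and X were slightly under the 1.15% of all tested genes. Whether the shares differ between chromosomes was not tested.

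Cuticle collagens, the structural proteins of the worm's exoskeleton that the hypodermis secretes, had more called members than any other of the 69 lists. This ranks lists by number, and the collagen list is a long one. Its called share was 13.8%, beside 1.15% of all tested genes. Shares were larger on the shorter lists of lysozymes (30%), DAF-16 readouts (20%), major sperm proteins, sperm, muscle and pathogen response. Of 109 tested collagen genes, 15 were called lower and 0 higher on DMSO, at 15 loci more than 100 kb apart, so no single stretch held them. At an unadjusted p below 0.05, 24 were lower and 9 higher. Of the 109, 54 pass the filter on the 6 compared libraries alone, and 20 had at most 3 counts in each group. The 109 had a median log2 fold change of -0.33 (-0.35 with genes at 0 in a group set to their bound, where 20 had no fold), beside 0.003 over all tested genes. The summed level was 20607 to 25138 CPM over the WT libraries and 14782 to 17466 CPM over the nhr-178 libraries, with no overlap. Without col-119, the most abundant, it was 10012 to 11150 CPM and 6888 to 7767 CPM. Of the 15, 13 were called lower on antimycin too, where 33 collagens were lower and 2 higher.

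col-142 had 399.8, 469 and 444 CPM in WT and 112.89, 149 and 124 CPM in nhr-178, a log2 fold change of -1.76 (adjusted p = 4.9e-11, SE 0.12). It had 687, 709 and 738 CPM in WT and 219, 219.8 and 203 CPM in nhr-178 on antimycin, a log2 fold change of -1.73 (adjusted p = 4.1e-11, SE 0.11). No library of one group reached the other in either treatment. col-19, a collagen of the adult cuticle, had 150.2, 179 and 151 CPM in WT and 103.99, 91.2 and 102 CPM in nhr-178, a log2 fold change of -0.69 (adjusted p = 0.0015, SE 0.12). col-129 had 23.8, 27.1 and 21.1 CPM in WT and 7.60, 8.49 and 10.1 CPM in nhr-178, a log2 fold change of -1.45 (adjusted p = 3.1e-05, SE 0.19). col-103 and col-93 gave -0.97 (adjusted p = 0.00023, SE 0.15) and -0.81 (adjusted p = 2.0e-05, SE 0.10). The remaining 10, col-20, col-42, col-80, col-98, col-101, col-119, col-124, col-139, col-159 and col-181, gave between -1.34 for col-139 and -0.45 for col-119, and col-119 was the only one of the 15 whose groups overlapped. col-20 and col-119 were the 2 not called on antimycin.

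Against the same WT libraries on DMSO, 18 of the 109 collagens were higher and 2 lower in nhr-45, beside 169 called genes in all (1.54%), with a median of 0.55. col-142 gave 1.75 there, col-129 1.82 and col-139 1.96. The 15 calls fell to 8 without nhr-178 replicate 1 and to 9 without nhr-178 replicate 3, and were 10 to 12 in the other 4 leave-outs. The 7 called in each leave-out were col-19, col-20, col-93, col-103, col-124, col-129 and col-142. Of the 15, col-19, col-80, col-93, col-101, col-103, col-119, col-124, col-142 and col-159 overlap another counted gene.

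**Figure D4:**
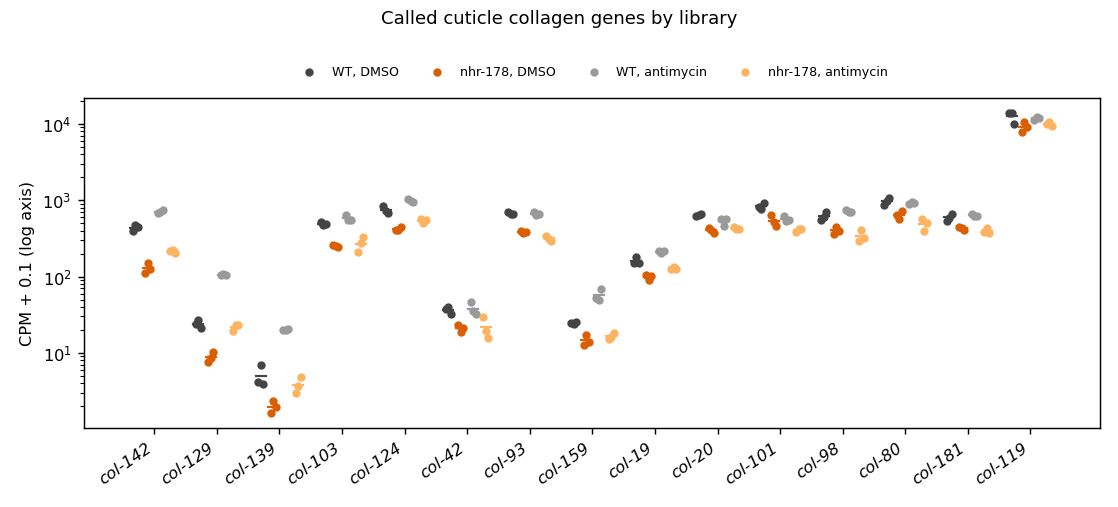
CPM plus 0.1 on a log axis for the 15 called collagen genes, ordered by log2 fold change, with 1 point per library and a bar at the group mean. The nhr-178 libraries lie below the WT libraries on DMSO for each gene except col-119, whose groups overlap.

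Body wall muscle genes were also called lower. Of 21 tested genes on a muscle list, 4 were called lower and 0 higher, at 4 loci, and 19 of the 21 had a negative sign, with a median of -0.28. The exceptions were the myosin gene myo-3 at 0.29 and pat-3 at 0.10, neither called. unc-54, the main body wall muscle myosin heavy chain, had 1659, 1636 and 2072 CPM in WT and 1176, 908 and 899 CPM in nhr-178, a log2 fold change of -0.85 (adjusted p = 0.012, SE 0.18). tnt-2, a troponin T, had 818, 831 and 898 CPM in WT and 492, 528 and 473 CPM in nhr-178, a log2 fold change of -0.77 (adjusted p = 0.027, SE 0.18). mlc-3, a myosin light chain, and dim-1, a muscle structural protein that overlaps C18A11.10, gave -0.46 and -0.68. The summed level was 17295 to 19346 CPM in WT and 12681 to 13780 CPM in nhr-178, and without unc-54 it was 15223 to 17687 CPM and 11781 to 12636 CPM. On antimycin 6 were called lower, and of the 4 called on DMSO only dim-1 and unc-54 were among them (tnt-2 had an adjusted p of 0.077 and mlc-3 of 0.12). None of the 4 stayed called without WT replicate 3, nhr-178 replicate 2 or nhr-178 replicate 3, only unc-54 did without nhr-178 replicate 1, and unc-54 and tnt-2 did without WT replicate 1 or 2. The part of this list, and of the hypodermis list, in the collagen result was not tested. The hypodermis list summed to 508 to 544 CPM in WT and 440 to 443 CPM in nhr-178, with 1 of 14 called. The called gene is the collagen col-19, with means of 160 and 99.1 CPM, which is part of that difference. The list also holds the collagens sqt-3, col-10, col-12, col-13 and dpy-7, so its sum is not separate from the collagen result.

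Of 58 antimicrobial peptide genes, 6 were called lower and 0 higher at 6 loci, with a median of -0.25 (-0.19 with bounded genes). The called share was 10.3%, beside 1.15% of all tested genes. The summed level overlapped, at 2179 to 2509 CPM in WT and 2078 to 2245 CPM in nhr-178. On antimycin 6 were lower and 3 higher, and in nhr-45 on DMSO 5 were lower and 3 higher. In those comparisons 3.63% and 1.54% of all tested genes were called. nlp-25 had 44.8, 39.4 and 33.5 CPM in WT and 3.91, 5.15 and 2.99 CPM in nhr-178, a log2 fold change of -3.27 (adjusted p = 7.8e-10, SE 0.24), and on antimycin -4.34 (adjusted p = 1.7e-11, SE 0.27). nlp-33 had 174, 166 and 123 CPM in WT and 87.1, 84.7 and 91.8 CPM in nhr-178, a log2 fold change of -0.81 (adjusted p = 0.0011, SE 0.14). nlp-29, an epidermal peptide gene induced by fungal infection and wounding, and the caenacin gene cnc-4 gave -1.12 and -1.26. fip-6 had 65 counts over WT and 5 over nhr-178. fipr-16 had 31 and 0, at least 7.24-fold lower against the floor. All but fip-6 and fipr-16 were called on antimycin too. The same 4 were lower in nhr-45 against the shared WT libraries, at -2.58, -0.73, -0.90 and -1.50. nlp-25 and nlp-33 were called in every leave-out, and the count was 2 without WT replicate 1 or nhr-178 replicate 3, 3 without WT replicate 2, nhr-178 replicate 1 or nhr-178 replicate 2, and 4 without WT replicate 3.

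Major sperm proteins and their relatives, small cytoskeletal proteins that move nematode sperm, were called lower for 6 of 31 tested genes at 5 loci, with 0 higher. That is 19.4%, beside 1.15% of all tested genes. The family was low in all libraries, with a summed level of 24.5 to 46.6 CPM in WT and 5.4 to 16.7 CPM in nhr-178, which did not overlap. msp-57 had 9.49, 3.93 and 7.47 CPM in WT and 0, 1.67 and 0.499 CPM in nhr-178, a log2 fold change of -3.09 (adjusted p = 0.00076, SE 0.52). The other 5, msp-55, msp-59, msp-64, msp-76 and msp-81, had 32 to 67 counts over WT and 1 to 9 over nhr-178. Only 4 of the 31 pass the filter on the 6 compared libraries alone, and 6 had at most 3 counts in each group, so no median is given. On antimycin 6 were lower, 4 of them also called on DMSO. In nhr-45 on DMSO, 9 were called higher. These genes are near-identical copies, so counts may be split between them. In a fit of only the 6 libraries, 1 of 31 was called, msp-57, and the count was 2 without nhr-178 replicate 1 and 3 without WT replicate 1 or nhr-178 replicate 3; msp-57 and msp-76 held in every leave-out. A wider sperm list of 32 tested genes, which holds 28 of these 31, summed to 16.9 to 37.1 CPM in WT and 0.2 to 7.3 CPM in nhr-178. Oocyte and eggshell genes summed to 17904 to 21408 CPM and 19563 to 21434 CPM, which overlapped. Of the 25 tested, only cpg-3 was called, lower at -0.53 (adjusted p = 0.034).

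The 19 higher genes included members of 2 small groups. Of 37 nematode-specific peptides of the nspa to nspe groups, 3 were called higher, nspc-5, nspc-17 and nspc-19, at 2 loci. That is 8.11%, beside 0.173% of all tested genes called higher. nspc-19 had 2.97, 3.54 and 3.68 CPM in WT and 10.2, 8.49 and 12.805 CPM in nhr-178, a log2 fold change of 1.62 (adjusted p = 0.006, SE 0.32), and on antimycin 2.45 (adjusted p = 1.9e-05, SE 0.33). Over all 37 genes, 18 had a negative sign on DMSO and the median was 0. At an unadjusted p below 0.05, 11 were higher and 5 lower. Only 19 of the 37 pass the filter on the 6 compared libraries alone. Of the 14 tested nspc genes, 13 had a positive sign on DMSO and 14 on antimycin. On antimycin 8 of the 14 were called, beside 3.63% of all tested genes. The summed level of the 14 on DMSO was 386 to 483 CPM in WT and 574 to 681 CPM in nhr-178. The copies are near-identical, and without nhr-178 replicate 3 none of the 3 was called, while nspc-19 held in the other 5 leave-outs. Of 10 lysozyme genes, 2 were higher and 1 lower. lys-4 had 14.9, 11.39 and 12.55 CPM in WT and 30.2, 29.1 and 32.3 CPM in nhr-178, a log2 fold change of 1.23 (adjusted p = 0.00076, SE 0.21), ilys-5 gave 0.58 and lys-7, a lysozyme gene of the bacterial defence response, gave -0.84. ilys-5 lost its call without WT replicate 2, nhr-178 replicate 2 or nhr-178 replicate 3 (adjusted p up to 0.084), and lys-7 held only without WT replicate 3. cpr-1, a cathepsin B-like protease of the gut, had 118, 117 and 94.4 CPM in WT and 221, 214 and 237 CPM in nhr-178, a log2 fold change of 1.03 (adjusted p = 8.2e-05, SE 0.15), and gave 0.31 on antimycin, where it was not called. F15D3.6, exh-1 and msra-1, which encodes a methionine sulfoxide reductase and overlaps insc-1, gave 1.21, 1.87 and 0.92; exh-1 lost its call without WT replicate 2, WT replicate 3 or nhr-178 replicate 2 (adjusted p up to 0.28), and msra-1 held only without WT replicate 3 or nhr-178 replicate 3.

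**Figure D5:**
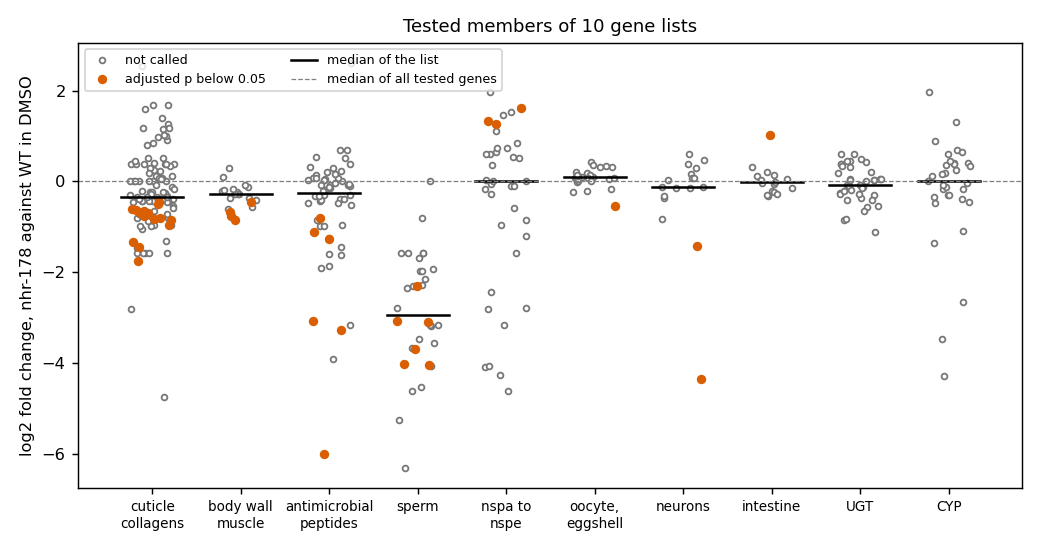
Log2 fold change of nhr-178 against WT on DMSO for the tested members of 10 gene lists, with 1 point per gene, filled where the adjusted p was below 0.05, and a bar at the median of the list; the dashed line is the median of all tested genes. Collagen, muscle, antimicrobial peptide, sperm, neuron and oocyte lists have called members on the lower side only.

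Readouts of the FOXO factor DAF-16 had 3 of 15 called, all lower: lea-1, dod-3 and lys-7. lea-1, which encodes a late embryogenesis abundant protein homologue, had 207, 230.1 and 226 CPM in WT and 103.55, 102 and 96.95 CPM in nhr-178, a log2 fold change of -1.14 (adjusted p = 7.7e-07, SE 0.12), and on antimycin -1.05 (adjusted p = 1.5e-06, SE 0.12). It stayed called in every leave-out and overlaps K08H10.16 and acl-2. dod-3 had 8.66, 18.5 and 16.3 CPM in WT and 4.99, 2.88 and 7.82 CPM in nhr-178, a log2 fold change of -1.47 (adjusted p = 0.021, SE 0.33), and held only without WT replicate 1 or nhr-178 replicate 3. A list labelled intestinal pathogen response had 3 of 20 called, nlp-29, cnc-4 and lys-7, which are also members of the lists above. Called shares of the DAF-16 and pathogen lists were 20% and 15%, beside 1.15% of all tested genes. As nlp-29 is an epidermal peptide gene, the list is not confined to the intestine. Counts of whole animals do not show in which tissue nlp-29, cnc-4 and lys-7 were lower. On antimycin 3 were lower and 3 higher, with a median of 0.22 beside -0.29 on DMSO. Of the DMSO calls, 0 of the 3 held without WT replicate 1, WT replicate 2, nhr-178 replicate 2 or nhr-178 replicate 3.

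In 40 of the 69 lists, 0 members were called by edgeR. With 1.15% of all tested genes called, a list of this size would hold few calls, so the 0 is no result about these families. Over their 785 genes, 67 (8.54%) had an unadjusted p below 0.05, beside 1114 of 10981 (10.1%) among all tested genes, and 9 were called by DESeq2. The lists were taken for having 0 calls, while the 10.1% includes the 126 called genes. The smaller share was therefore partly fixed by that choice. The 40 lists include the UDP-glucuronosyltransferases (39 tested, 3 at an unadjusted p below 0.05, 0 by DESeq2), cytochromes P450 (33 tested, 4 and 0), glutathione S-transferases (29 tested, 9 and 2, a larger share than among all genes), nuclear hormone receptors (6 and 0), vitellogenins (6 tested, 1 and 0), cytosolic ribosomal proteins (83 tested, 5 and 0), respiratory chain subunits (37 tested, 2 and 0) and the mitochondrial unfolded protein response (12 tested, 0 and 0). The lists of the germline (22 tested, 1 and 0) and the pharynx (16 tested, 3 and 0) were among the 40. On the list of 16 intestinal genes only cpr-1 was called.

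Sorted by position and list, the 126 called genes fell into 22 in a run of neighbours, 31 outside a run on a list that met the rule for a family, 17 on another list and 56 on no list. The rule asked for at least 3 members called the same way at 3 or more loci, and 7 of 69 lists met it: collagens, major sperm proteins, sperm, antimicrobial peptides, muscle, DAF-16 readouts and pathogen response. The 7 are not separate families. The sperm list had the same 6 called genes as the major sperm proteins. The 3 pathogen response calls are also on the antimicrobial peptide or DAF-16 lists. On antimycin the DAF-16 readouts had 4 lower and 1 higher, and the direction of the pathogen response list did not hold. Of the 22 genes in runs, 3 were also on such a list. Same-way calls on antimycin covered 18 of the 22, 22 of the 31, 10 of the 17 and 29 of the 56. Of the 36 called genes with a log2 fold change of at least 2 either way, 21 were called the same way on antimycin.

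The interaction of genotype and treatment was called for 29 of 10981 genes (0.264%), with 906 at an unadjusted p below 0.05, and 5 of the 126 DMSO calls were among the 29. For the rest, a missing interaction call does not show that the difference was equal in both treatments.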

How the data were processed

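The authors deposited whole-number read counts per gene for 18 libraries. Per the submitters' processing notes, Bowtie2, RSEM, DESeq2 and R 3.6.3 were used. RSEM divides reads among similar genes, and the sources used here give neither how whole numbers were made nor the strand setting or genome build. Positions come from the WBcel235 annotation, matched by gene ID.

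Counts were filtered with filterByExpr and fitted in edgeR 4.0.16 (R 4.3.3) with TMM scaling, 1 mean per group, all 18 libraries and 12 residual degrees of freedom; 10981 genes were tested, and the biological coefficient of variation was 17.1%. Standard errors are the log2 fold change over the root of F. The script was tested on simulated data. DESeq2 1.42.0, other scaling and filters, subsets of libraries and leave-outs were alternatives. Same-number libraries did not deviate together (correlations of -0.050 to 0.046), so numbers were not taken as pairs.

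Genes named are the 10 highest and 10 lowest calls whose groups did not overlap and whose mean reached 5 CPM, calls within 1 Mb of nhr-178 or in runs of at least 3, the 4 lowest p of each list with at least 3 calls, the 10 lowest p among calls shared with antimycin, the receptors and the neighbours of nhr-178. Other genes named were chosen after their values were seen. Members and lists were chosen with earlier results of these data known. Lists by symbol may miss or add a gene.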

Additional observations from a re-analysis of the deposited data

Results flagged for a closer look

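Among the 126 genes called on DMSO, 5 had a difference between nhr-178 and WT that itself differed between antimycin and DMSO by edgeR's interaction test. F46C5.1 had 4.39, 7.60 and 4.0 CPM in WT and 1.52, 1.67 and 1.16 CPM in nhr-178 on DMSO and 8.46, 13.6 and 8.67 CPM in WT and 27.5, 22.7 and 25.6 CPM in nhr-178 on antimycin, an interaction of 3.13 (adjusted p = 0.00022, SE 0.41) on the log2 scale. It was lower in nhr-178 in all 3 libraries on DMSO and higher in all 3 on antimycin, and it overlaps the counted gene linc-72. unc-54, the muscle myosin, gave -1.41 (adjusted p = 0.0092, SE 0.25), with 4422, 3721 and 4826 CPM in WT and 1102, 830.1 and 784 CPM in nhr-178 on antimycin. The C-type lectin gene clec-83 gave 1.02 (adjusted p = 0.0095, SE 0.19), the acid phosphatase gene pho-11 gave 0.96 (adjusted p = 0.038, SE 0.20) and F55G11.4 gave 1.06 (adjusted p = 0.045, SE 0.23). Each value rests on 3 libraries per group, and the part of depth in it was not tested.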

How the results depend on the processing

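Under DESeq2, 200 genes were called on DMSO (173 lower) and 73 for the interaction. With no filter on low counts the values were 219 (39 higher, 180 lower), 262 for nhr-45 and 103 for the interaction. The replicate block, fitted with all 18 libraries, gave 105 lower and 17 higher calls on DMSO, and in the 6 libraries alone it gave 83, 66 of them lower, against 130 in those 6 without it. Leaving out 1 library at a time gave 63 to 94 calls on DMSO, 8 to 14 higher and 53 to 80 lower. It gave 225 to 354 on antimycin, 9 to 41 for the interaction, 48 to 68 called the same way in both treatments and 100 to 130 for nhr-45, where WT libraries alone were left out. A distance of 100 kb put 36 genes in runs in place of 22, and distances of 0.25 and 2 Mb put 1 and 8 called genes near nhr-178 in place of 4. No direction reversed. The fit without the 3 nhr-45 libraries on antimycin and the windows of 15 genes were chosen after seeing the data. Of 56 named genes, 31 stayed on their side of the threshold in every alternative run; the cause of the other losses was not tested, beyond fewer libraries leaving less to estimate the spread. The shallow nhr-178 libraries limit low genes, and 3 libraries per group limit all calls.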
